A study of Homo sapiens with 6 samples.

Results

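Transcript levels of 10 genes of iron handling were compared between HCT116 cells labelled siMTA1 (3 libraries) and control HCT116 cells (3 libraries). The genes are LCN2, the gene of lipocalin 2, a secreted protein that withholds iron from bacteria, and 9 genes of cellular iron import, storage, export and sensing. All 10 have a row among the 36651 genes of the table. LCN2 was chosen by its large difference in this same comparison, and the other 9 were added for their known roles with results of the comparison in view. Differences of the 10 genes between the groups are therefore given as a description, without p-values. Where one of them is said to be called, this states only on which side of the threshold the fit over all genes put it. HCT116 is a human colorectal carcinoma line of epithelial morphology. The treated samples are called siMTA in their descriptions and CrMTA1 in their titles, and the controls Ctrl and WT, and these names leave it uncertain whether siRNA or genome editing was used. No dose, time, clone or kind of control is given in the sources used here, and nothing says that replicates came from separate cultures, so the spread behind each p-value may be technical.

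Cells take up iron bound to transferrin through the transferrin receptor, reduce it in the endosome, pass it to the cytosol through a divalent metal transporter, store the surplus in ferritin and export it through ferroportin. A pair of iron regulatory proteins, the products of ACO1 and IREB2, bind hairpins called iron-responsive elements when iron is scarce. Bound at the 5′ end of ferritin and ferroportin transcripts they block translation, and bound at the 3′ end of the TFRC transcript they protect it from decay. Lipocalin 2 takes a separate route. It binds siderophores, the small iron carriers that bacteria secrete, and is known from neutrophil granules and from inflamed epithelia, the colon included.

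Matches to this hairpin are shown for FTH1, FTL, SLC40A1, TFRC and SLC11A2. A search of letters does not divide the 10 genes into those with and without this control. The search was for a bulged C, 5 stem bases, the loop CAGTG and 1 further base, and 5 bases that pair with the stem (G-T pairs allowed), on the sense strand of GENCODE 29 transcripts. Capitals mark the bulged C and the 6 loop bases, and coordinates are on GRCh38. A fully paired stem was found once in FTH1 (chr11:61967574-61967602, minus strand, 5′ UTR), FTL (chr19:48965335-48965363, plus strand, 5′ UTR) and SLC40A1 (chr2:189580661-189580689, minus strand, 5′ UTR), and 4 times in the 3′ UTR of TFRC on the minus strand (chr3:196050979-196051007, chr3:196050575-196050603, chr3:196050510-196050538 and chr3:196050463-196050491). SLC11A2 holds a match with 1 unpaired stem position in its 3′ UTR (chr12:50988269-50988297, minus strand), in 5 protein-coding transcripts. Its 34 searched transcripts were of every type, and matches in types other than protein-coding were left out for all 10 genes. The fully paired matches were in 7 protein-coding transcripts of FTH1, 1 of FTL, 1 of SLC40A1 and, for each site, 3 of TFRC. The transcripts searched for these genes numbered 12, 1, 7 and 15.
FTH1: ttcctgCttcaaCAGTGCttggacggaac
FTL: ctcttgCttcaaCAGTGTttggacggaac
SLC40A1: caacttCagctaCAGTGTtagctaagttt
TFRC, the first of 4: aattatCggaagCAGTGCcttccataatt
TFRC, the second of 4: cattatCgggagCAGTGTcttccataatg
TFRC, the third of 4: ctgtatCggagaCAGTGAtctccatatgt
TFRC, the last of 4: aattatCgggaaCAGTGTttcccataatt
SLC11A2: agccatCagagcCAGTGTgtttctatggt

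Of 19669 protein-coding genes searched, 1.48% held at least 1 fully paired match and 11.2% at least 1 match with up to 1 unpaired position. A single gene, TFRC, held 4 fully paired matches in 1 transcript. In protein-coding transcripts, ACO1 and IREB2 had 1 match each with 1 unpaired position, and LCN2, STEAP3 and CYBRD1 had none. A match of letters does not show that the hairpin is bound.

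MTA1, the targeted gene and a subunit of the NuRD chromatin complex, stood at 44.55, 43.98 and 47.97 FPKM in siMTA1 libraries 1, 2 and 3, against 65.90, 67.61 and 66.74 FPKM in control libraries 1, 2 and 3. FPKM are fragment counts scaled by gene length and library size. The siMTA1 mean was 68.16% of the control mean with no overlap, and permuting the 6 values (exact, two-sided) returned p = 0.1, below which 3 against 3 libraries cannot go. Depth, read from the steps of the lowest values, was 57200000 to 66700000 fragments in siMTA1 libraries and 42900000 to 65400000 in control libraries. Of the 12141 genes that averaged 1 FPKM or more, 18.2% were called different (limma on log2(FPKM + 1), adjusted p under 0.05 over all of them), 6.13% higher and 12.1% lower with siMTA1. Scaling moved the split of 744 higher and 1463 lower genes, which was 1128 and 802 with median centring, 1000 and 939 with upper-quartile scaling and 1011 and 895 with quantile normalization. Without siMTA1 library 2 the number of called genes was 1066, and without control library 2 it was 1046, against 2207 with all libraries. Epithelial markers were present in every library, KRT19 with means of 3314 FPKM in siMTA1 and 3538 FPKM in control cells and EPCAM with 270.5 and 294.9 FPKM. VIL1, CDX1 and LGALS4, colon markers of the same list of 10, did not exceed 0.05 FPKM in any library. Of the 7 tested markers of that list CDH1, the E-cadherin gene, was higher with siMTA1 (log2 fold change 0.27, adjusted p = 0.00874) and the keratin genes KRT8 (-0.29, adjusted p = 0.0148) and KRT18 (-0.25, adjusted p = 0.0336) were lower. The KRT8 call ended without control library 2 (adjusted p = 0.0633), and that of KRT18 without siMTA1 library 1 or 2 or control library 2 or 3 (0.0747 to 0.118). The part of these epithelial differences in the differences of the iron handling genes was not tested.

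Among the 10 genes, LCN2 differed by far the most, the transferrin receptor and both ferritin chains differed by less than the spread between libraries, and the reductases STEAP3 and CYBRD1 and the metal transporter SLC11A2 were called lower by a smaller amount with siMTA1. The filter of a mean of 1 FPKM was passed by 9 of the 10 genes, all but SLC40A1. Of these 9, the fit over all genes called 4, all of them lower, beside the 18.2% called among all tested genes. Without siMTA1 library 2, 2 were called. The siMTA1 and control values stood apart in 5 of the 9, all lower with siMTA1. That happened in 39.1% of all tested genes, of which 25.9% were lower and 13.2% higher with siMTA1. The median log2 difference was -0.16 over the 9 genes and -0.05 over all tested genes. Since the genes were picked with this comparison known, nothing is read from these counts.

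**Figure D1:**
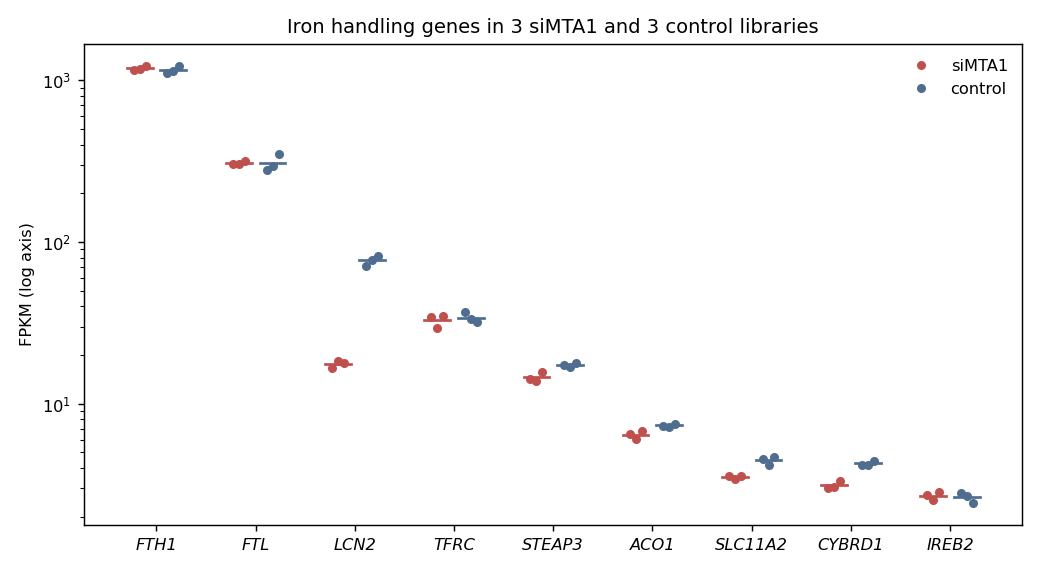
Level of 9 iron handling genes in FPKM on a log axis, with 1 point per library and a bar at the mean of the 3 siMTA1 and of the 3 control libraries. LCN2 is the gene whose groups stand far apart, at 16.6 to 18.41 FPKM in siMTA1 and 71.19 to 82.33 FPKM in control libraries, and SLC40A1, listed at 0 throughout, is not drawn.

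LCN2 (ENSG00000148346.11) spans chr9:128149071-128153455 (GRCh38, plus strand). It stood at 16.6, 18.41 and 17.8 FPKM in siMTA1 libraries 1, 2 and 3, against 71.19, 77.38 and 82.33 FPKM in control libraries 1, 2 and 3. Every siMTA1 library was far below every control library, and the siMTA1 mean was 22.9% of the control mean. The log2 difference was -2.07 (SE 0.07, 95% interval -2.22 to -1.91) and ranged from -2.12 to -2.01 over 17 other settings. The implied fragments behind these values were 1517 to 1962 in siMTA1 libraries and 4880 to 8604 in control libraries, if the exon length of GENCODE 29 applies. In RNA from a whole culture, fewer cells that express LCN2 and less LCN2 transcript per cell cannot be told apart. The order of the genes by level in FPKM differed between the groups. In siMTA1 cells TFRC stood 1.87-fold above LCN2, whereas in control cells LCN2 stood 2.27-fold above TFRC and was exceeded by FTH1 and FTL alone, with no overlap of the ranges in either group. LCN2 relative to FTL within a library was 5.44%, 6.06% and 5.61% in siMTA1 libraries and 25.7%, 26.0% and 23.5% in control libraries.

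Among the import genes the receptor was not called, and the reductases and the transporter were called lower. TFRC, the receptor that takes up iron-loaded transferrin, had 34.28, 29.57 and 34.83 FPKM in siMTA1 libraries, against 36.68, 33.24 and 31.87 FPKM in control libraries. The groups overlapped, and the log2 difference was -0.04 (SE 0.08, 95% interval -0.22 to 0.13). STEAP3, the ferric reductase of the transferrin endosome, had 14.29, 13.91 and 15.65 FPKM in siMTA1 libraries, against 17.27, 16.93 and 17.96 FPKM in control libraries. All siMTA1 values were below the controls, with 84.07% of the control mean and a log2 difference of -0.24 (SE 0.06). The call of STEAP3 ended without siMTA1 library 1 or 2 or control library 2 or 3, and also with no filter on low values, upper-quartile scaling, median centring and quantile normalization.

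SLC11A2, or DMT1, carries ferrous iron out of the endosome and across the apical membrane of enterocytes. It had 3.57, 3.4 and 3.56 FPKM in siMTA1 libraries, against 4.54, 4.15 and 4.71 FPKM in control libraries. The siMTA1 values were tightly grouped below the lowest control value, at 78.58% of the control mean, with a log2 difference of -0.28 (SE 0.06). Its call ended without siMTA1 library 2 and with no filter on low values. The table gives 1 value for the whole gene, so forms with and without the hairpin were not separated. CYBRD1, or duodenal cytochrome b, reduces ferric iron at the apical membrane of enterocytes. It had 3.02, 3.07 and 3.34 FPKM in siMTA1 libraries, against 4.19, 4.19 and 4.44 FPKM in control libraries. After LCN2 it showed the largest difference of the 9 tested genes, at 73.56% of the control mean (log2 difference -0.35, SE 0.06). It was called lower under all 16 other settings in which it was tested.

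Neither ferritin chain was called. FTH1, the ferritin heavy chain that oxidises ferrous iron, had 1163.34, 1179.13 and 1228.57 FPKM in siMTA1 libraries, against 1104.39, 1146.12 and 1219.46 FPKM in control libraries. FTL, the ferritin light chain, had 304.91, 304.03 and 317.41 FPKM in siMTA1 libraries, against 277.22, 297.18 and 350.71 FPKM in control libraries. The groups overlapped for both chains, and FTL had a coefficient of variation of 2.42% among siMTA1 libraries, against 12.3% among control libraries. The log2 difference was 0.04 for FTH1 (95% interval -0.09 to 0.17) and 0.01 for FTL (95% interval -0.17 to 0.19). The ratio of FTH1 to FTL within a library was 3.82, 3.88 and 3.87 in siMTA1 libraries and 3.98, 3.86 and 3.48 in control libraries. TFRC relative to FTH1, 2 transcripts whose products rise and fall in opposite directions with iron, was 2.95%, 2.51% and 2.84% in siMTA1 libraries and 3.32%, 2.90% and 2.61% in control libraries, and these ranges overlapped. BEST1, which overlaps FTH1 on the opposite strand, had 0.81 FPKM in siMTA1 and 1.11 FPKM in control cells. Reads of ferritin can be shared with processed pseudogenes, so both values are uncertain. The counting method was not given and shared reads may have been left out, so the pseudogene values do not bound this uncertainty. The 19 FTH1 pseudogenes in the table summed to 4.89 to 5.85 FPKM in siMTA1 and 4.53 to 6.43 FPKM in control libraries, at most 0.582% of FTH1, and the 7 FTL pseudogenes to at most 0.18% of FTL. The highest of them were FTH1P8, with means of 2.97 FPKM in siMTA1 and 2.35 FPKM in control cells, FTH1P2 (0.483 and 0.433 FPKM), FTLP3 (0.0533 and 0.183 FPKM) and FTLP14 (0.143 and 0.137 FPKM).

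Export and sensing complete the 10 genes. SLC40A1, or ferroportin, the iron exporter, was listed at 0 in all 6 libraries, as were 3525 genes of the table. At the implied depths, 1 fragment of SLC40A1 is worth 0.00346 to 0.00538 FPKM, so that the 2 printed decimals do not separate 0 fragments from 1 in most libraries. FDX1L, a ferredoxin gene of iron-sulphur assembly that all cells use, was also listed at 0 throughout, so a listed 0 does not by itself show an absent transcript. ACO1, which codes for the first iron regulatory protein and doubles as cytosolic aconitase, had 6.54, 6.03 and 6.76 FPKM in siMTA1 libraries, against 7.28, 7.22 and 7.51 FPKM in control libraries. Its groups did not overlap and its log2 difference was -0.16 (SE 0.06), but it was not called. It was called with array weights alone among the 17 other settings. IREB2, the second iron regulatory protein, had 2.71, 2.53 and 2.86 FPKM in siMTA1 libraries, against 2.8, 2.69 and 2.43 FPKM in control libraries. Its groups overlapped, with a log2 difference of 0.02 (95% interval -0.13 to 0.18).

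**Figure D2:**
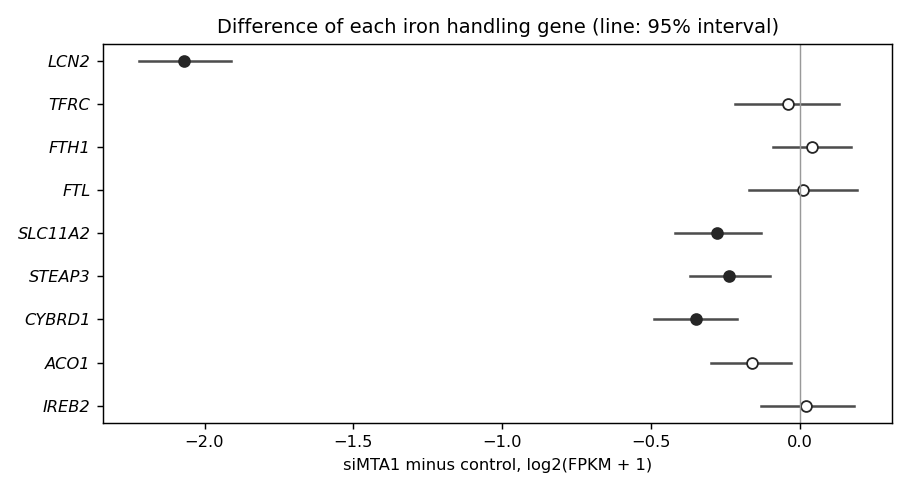
Log2 difference, siMTA1 minus control on the log2(FPKM + 1) scale, of the 9 tested iron handling genes with its 95% interval, filled where the fit over all genes made a call. LCN2 lies at -2.07, the called genes SLC11A2, STEAP3 and CYBRD1 between -0.35 and -0.24, and TFRC, FTH1, FTL and IREB2 within 0.04 of 0.

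Within each group the level of a gene mostly exceeded that of the next one beyond the spread of the 3 libraries. The exception was SLC11A2 and CYBRD1 in control cells, whose ranges overlapped. In siMTA1 cells these 2 genes were apart by little, the lowest SLC11A2 value being 3.4 FPKM and the highest CYBRD1 value 3.34 FPKM. FTH1 was 3.85-fold above FTL in siMTA1 cells and 3.75-fold in control cells, and together the chains took 0.375% to 0.39% of the FPKM sum in siMTA1 and 0.35% to 0.389% in control libraries.

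The stretch just before the RefSeq start of LCN2 is shown because inflammatory control of the gene is known to act there. It is taken from the RefSeq promoter table (GRCh38.p14, chr9:128149265-128149440, plus strand) and runs from 188 to 13 bases before the RefSeq start, the part of the window that no annotated LCN2 exon covers. The GENCODE span of the gene given above begins further upstream, with another annotated form, so the stretch lies inside that span. Capitals mark 2 overlapping matches, 1 on each strand, to a kappa B type motif (GGG, any 5 bases, CC), the first of which begins 176 bases before the start, and 1 match to the C/EBP type motif TTGCNNAA, 143 bases before the start.
LCN2 upstream: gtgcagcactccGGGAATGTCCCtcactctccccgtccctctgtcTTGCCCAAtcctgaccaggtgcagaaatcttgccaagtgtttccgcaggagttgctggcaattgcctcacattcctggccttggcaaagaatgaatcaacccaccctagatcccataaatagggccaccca

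These motifs are short, and 58.7% of 35116 windows of 300 bases held the first and 10.5% the second on either strand. The core of the hypoxia element, ACGTG, was in 21.4% of windows, in that of TFRC and FTL and not in that of LCN2. Some or all windows of TFRC, SLC40A1, SLC11A2, STEAP3, CYBRD1, ACO1 and IREB2 also held the kappa B type motif. The C/EBP type motif was also in the windows of CYBRD1, and FTH1 had no window to search. Factors and receptors known to act on LCN2 were called in both directions. Of 17 tested among 21, 3 were lower and 2 higher (29.4% called, beside 18.2% of all tested genes), with a median log2 fold change of -0.09. NFKB1, a subunit of NF-kB, fell to 4.57 ± 0.0854 FPKM in siMTA1 cells, against 6.25 ± 0.365 FPKM in control cells (SD, n = 3 each, log2 fold change -0.38, limma adjusted p = 0.00403). IL6ST, the shared receptor chain of the interleukin 6 family, fell to 2.20 ± 0.188 FPKM in siMTA1 cells, against 3.28 ± 0.159 FPKM in control cells (log2 fold change -0.42, adjusted p = 0.00439). KLF5, an epithelial transcription factor, rose to 23.04 ± 1.48 FPKM in siMTA1 cells, against 16.8 ± 0.538 FPKM in control cells (log2 fold change 0.43, adjusted p = 0.00267). RELB, another NF-kB subunit gene, singled out after its values were seen, was lower with a log2 fold change of -0.32, and its call ended without control library 2 (adjusted p = 0.0526). The count of 5 became 3 without control library 2 or with no filter, and 8 with array weights. RELA (log2 fold change 0.11, adjusted p = 0.307) and CEBPB (-0.09, adjusted p = 0.546) did not pass.

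NFKBIZ, an NF-kB cofactor known to induce LCN2, was below the filter and is named after its values were seen. It had 0.69, 0.69 and 0.74 FPKM in siMTA1 libraries, against 1.12, 1.24 and 1.20 FPKM in control libraries, with no overlap. With the filter at a mean of 0.1 FPKM its log2 fold change was -0.36 (SE 0.06, adjusted p = 0.0127). Other antimicrobial genes of epithelia were scarcely present: of 17 found, SLPI alone was tested, with 14.6 ± 1.85 FPKM in siMTA1 and 12.1 ± 1.47 FPKM in control cells (SD, n = 3 each, adjusted p = 0.115). SAA1, an acute phase gene also named after its values were seen, had 0.05, 0.08 and 0.11 FPKM in siMTA1 libraries, against 0.45, 1.29 and 0.98 FPKM in control libraries. Of the 2 tested genes of the lipocalin partner list 0 were called, also at an unadjusted p under 0.05 in limma. The receptor gene SLC22A17 had 1.62 ± 0.0945 FPKM in siMTA1 and 1.49 ± 0.291 FPKM in control cells (adjusted p = 0.561), and BDH2, an enzyme reported to make a mammalian siderophore, 3.55 ± 0.24 and 3.8 ± 0.469 FPKM (adjusted p = 0.540). Of 9 markers of neutrophils, the classical source of lipocalin 2, 5 (MPO, ELANE, CEACAM8, LTF and BPI) were listed at 0 in all libraries. The whole list summed to 0.93 to 1.05 FPKM in siMTA1 and 1.17 to 1.33 FPKM in control libraries, nearly all of it PRTN3 (0.967 ± 0.0404 and 1.23 ± 0.0874 FPKM, adjusted p = 0.0923). Markers of macrophages and other blood cells, 9 of 10 found and none tested, summed to 0.52 to 0.62 FPKM in siMTA1 and 0.51 to 0.69 FPKM in control libraries. Those of fibroblasts and endothelium, 8 of 9 found, summed to 2.31 to 2.85 and 2.09 to 2.19 FPKM, mostly COL1A1 (2.37 ± 0.262 and 1.89 ± 0.0907 FPKM, adjusted p = 0.0671). The part of these cell types in the LCN2 difference was not tested.

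**Figure D3:**
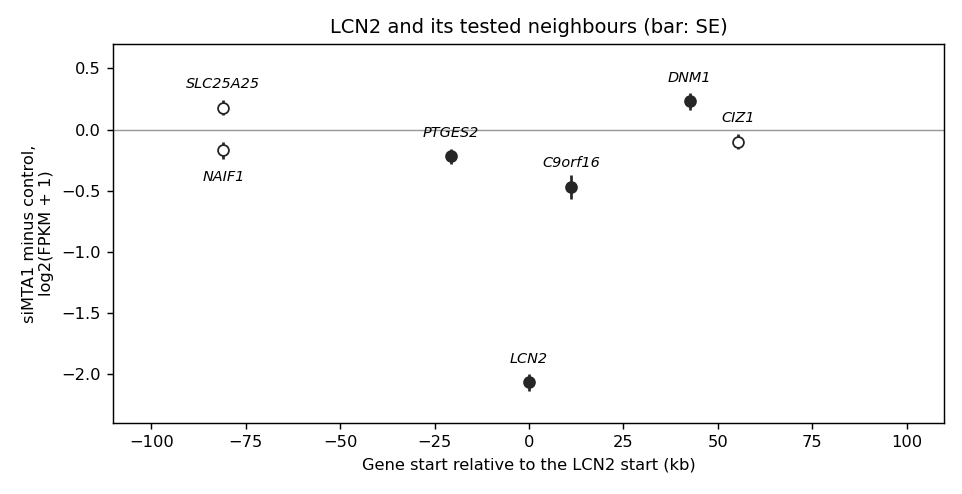
Log2 fold change with its SE, siMTA1 minus control on the log2(FPKM + 1) scale, of LCN2 and the 6 tested genes that start within 100 kb of it, by distance between gene starts in kb. LCN2 lies at -2.07 and its neighbours between -0.47 and 0.23, filled where called.

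Beside the log2 difference of -2.07 in LCN2, its tested neighbours on chromosome 9 ranged from -0.47 to 0.23. Of 12 genes annotated within 100 kb of its start, 6 were tested, with 2 called lower and 1 higher, beside 12.1% lower and 6.13% higher among all tested genes. C9orf16, 11.2 kb downstream, fell to 10.1 FPKM in siMTA1 cells, against 14.5 FPKM in control cells (log2 fold change -0.47, SE 0.10, adjusted p = 0.0148, but 0.0598 without siMTA1 library 2). PTGES2, a prostaglandin synthase gene 20.6 kb upstream, had a log2 fold change of -0.22 (adjusted p = 0.0266), and DNM1, a dynamin gene 42.6 kb downstream, of 0.23 (adjusted p = 0.0491). The DNM1 call ended without any 1 of the 6 libraries (adjusted p of 0.0745 to 0.152), and that of PTGES2 without siMTA1 library 1 or 2 or control library 2 or 3 (0.0541 to 0.0866). NAIF1 (-0.17, adjusted p = 0.124), SLC25A25 (0.18, adjusted p = 0.0552) and CIZ1 (-0.10, adjusted p = 0.251) did not pass. The difference between LCN2 and any neighbour was not tested.

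Across the 6 libraries, the profiles nearest to that of LCN2 among 7081 other genes that averaged 5 FPKM or more were those of CXCL1, KRTAP2-3, HOXB8, PLAU and MALT1. Likeness is the distance between profiles of log2(FPKM + 1), each centred on its own mean, and ranged from 0.81 for CXCL1 to 1.25 for MALT1, beside 2.54 for a flat profile. CXCL1 is a neutrophil chemokine gene, PLAU codes for urokinase and MALT1 for a protease of NF-kB signalling. CXCL1 had 3.8, 2.86 and 3.36 FPKM in siMTA1 libraries, against 14.59, 12.01 and 10.22 FPKM in control libraries. The groups of CXCL1 stood apart as those of LCN2 did, which follows from the choice by likeness. For TFRC the nearest were TM2D3, CMTM6, NTAN1, RAB14 and a gene whose symbol the table gives as a calendar date, at distances of 0.042 to 0.0628 beside 0.235 for a flat profile. TFRC and these 5 genes have their lowest siMTA1 value in library 2 and their highest control value in library 1.

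With the FPKM as deposited and the filter at a mean of 1 FPKM, other genes of iron metabolism were called lower more often than higher, like the tested genes as a whole. Of 72 tested among 91 found, 19 were lower and 5 higher (33.3% called), beside 12.1% lower and 6.13% higher of all tested genes (18.2% called), with a median log2 fold change of -0.10 beside -0.05 for all. The count of 24 fell to 15 without siMTA1 library 1 or 3, to 9 without siMTA1 library 2 and to 11 without control library 2. With median centring 8 were lower and 6 higher, and with upper-quartile scaling or quantile normalization 11 and 6. Over all tested genes median centring gave 802 lower and 1128 higher, upper-quartile scaling 939 and 1000, and quantile normalization 895 and 1011. The lean of all tested genes to lower calls was thus reversed under these scalings. With no filter on low values the lean of the iron genes was reversed instead, with 2 lower and 4 higher. Over all genes that setting gave 379 lower and 297 higher.

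In transferrin uptake and non-transferrin import, 3 of 7 tested genes were lower and 0 higher, beside 12.1% and 6.13% of all tested genes. The median log2 fold change of the 7 was -0.25, and the 3 lower genes all had low levels. STEAP2, a metalloreductase, fell to 1.62 ± 0.169 FPKM in siMTA1 cells, against 2.40 ± 0.286 FPKM in control cells (SD, n = 3 each, log2 fold change -0.38, adjusted p = 0.0151). TFR2, the second transferrin receptor, fell to 1.29 ± 0.01 FPKM, against 1.73 ± 0.0917 FPKM in control cells (log2 fold change -0.25, adjusted p = 0.0269), and SLC39A8, a zinc and iron importer, to 1.93 ± 0.182 FPKM, against 2.48 ± 0.176 FPKM in control cells (log2 fold change -0.25, adjusted p = 0.0435). The SLC39A8 call ended without any 1 of the 6 libraries (adjusted p of 0.0512 to 0.137), that of TFR2 without any but control library 3 (0.0572 to 0.0999) and that of STEAP2 without siMTA1 library 2 (0.0584). With no filter on low values all 3 calls ended (adjusted p of 0.0993 to 0.162), with median centring those of SLC39A8 (0.0945) and TFR2 (0.0694), and that of SLC39A8 also with a filter at 0.1 FPKM, TPM, upper-quartile scaling or quantile normalization (0.0558 to 0.0717). Among genes of ferritin loading and turnover, NCOA4, the receptor that delivers ferritin to the lysosome, fell to 25.7 ± 2.04 FPKM in siMTA1 cells, against 30.9 ± 1.30 FPKM in control cells (log2 fold change -0.26, adjusted p = 0.0296). PCBP3, of the family of iron chaperones, rose to 1.63 ± 0.139 FPKM, against 0.893 ± 0.0551 FPKM in control cells (log2 fold change 0.47, adjusted p = 0.00313). The other 4 of 6 tested were not called, PCBP1 and PCBP2, which load ferritin with iron, among them. The NCOA4 call ended without siMTA1 library 1 or 2 or control library 2 or 3 (adjusted p of 0.0598 to 0.115), and with no filter, upper-quartile scaling or median centring.

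The count of 3 import genes became 0 without siMTA1 library 2 and 1 without siMTA1 library 1 or 3 or control library 2, and was 0 with no filter and 1 with median centring. Of the export and hepcidin list, NEO1, a receptor of the hepcidin pathway, was the 1 tested gene of 8 found, with 4.67 ± 0.141 FPKM in siMTA1 and 4.27 ± 0.311 FPKM in control cells (SD, n = 3 each, adjusted p = 0.273). HAMP, the hepcidin gene, did not exceed 0.04 FPKM in any library. HEPH of this list, also below the filter, had 0.29, 0.2 and 0.25 FPKM in siMTA1 libraries, against 0.08, 0.06 and 0.07 FPKM in control libraries. BMP6 of this list and TF of the import list, below the filter too, stood apart in the same direction, and ABCG2 of the heme list in the other. These 4 genes are named after their values were seen. With no filter on low values 1 of the 8 genes of the export list was called, beside 676 of 33126 over all genes. In the list around iron sensing, 2 of 7 were lower and 0 higher, beside 12.1% lower and 6.13% higher of all tested genes. At an unadjusted p under 0.05 limma counted 3 and 0, and the share of all tested genes at that threshold is not given here. SDHD, a subunit of succinate dehydrogenase, had a log2 fold change of -0.28 (adjusted p = 0.0253) and PFN2, a profilin with an iron-responsive element described in mouse, of -0.20 (adjusted p = 0.0325). The SDHD call ended without siMTA1 library 2 or 3 or control library 1 or 3 (adjusted p of 0.0556 to 0.0894) and that of PFN2 without any library but control library 3 (0.0666 to 0.111), and both ended with no filter, median centring and quantile normalization. The PFN2 call also ended with TPM and upper-quartile scaling, where the count of the list was 1. FBXL5, the iron-sensing adaptor that removes the IREB2 protein, had a log2 fold change of -0.21 and did not pass (adjusted p = 0.0747).

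**Figure D4:**
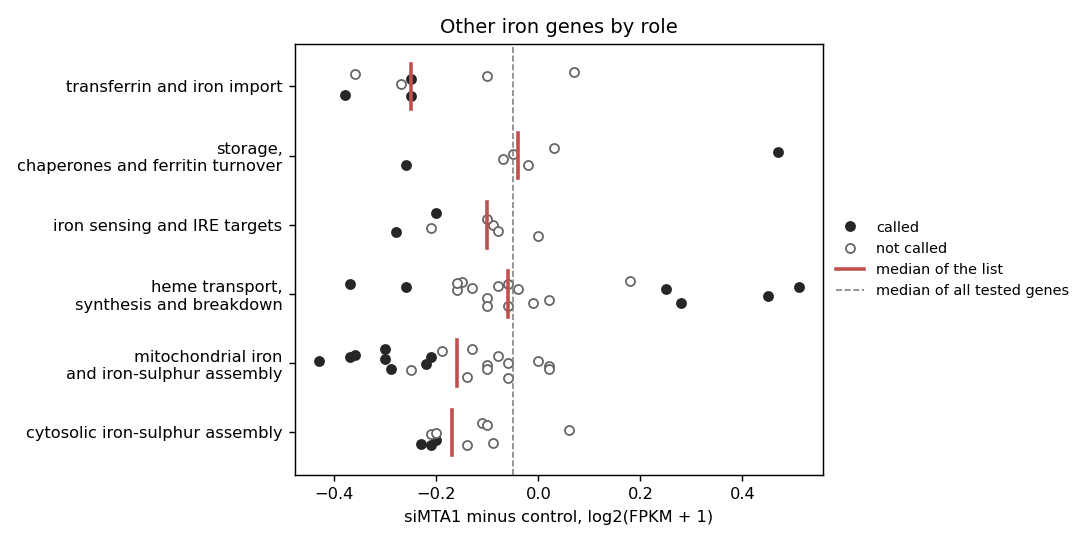
Log2 fold change, siMTA1 minus control on the log2(FPKM + 1) scale, of each tested gene in 6 lists of iron metabolism, filled where called, with the median of each list and a dashed line at the median of all tested genes. The called genes of the iron-sulphur lists all lie below 0, and the heme list holds 4 called genes above 0 and 2 below.

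Heme genes were called in both directions, with 4 of 19 tested higher and 2 lower, beside 6.13% higher and 12.1% lower of all tested genes. The median log2 fold change of the heme genes was -0.06. CPOX, a mitochondrial enzyme of heme synthesis, rose to 84.3 ± 3.56 FPKM in siMTA1 cells, against 58.8 ± 0.777 FPKM in control cells (SD, n = 3 each, log2 fold change 0.51, adjusted p = 0.000462). HMOX1, the inducible heme oxygenase that releases iron from heme, rose to 11.13, 10.12 and 11.75 FPKM in siMTA1 libraries, with a mean of 141.4% of that of control libraries at 7.28, 8.18 and 7.87 FPKM (log2 fold change 0.45, adjusted p = 0.00354). Both kept their call under all 17 other settings. TMEM14C, a porphyrin carrier of mitochondria known from mouse and zebrafish, fell to 31.1 ± 3.30 FPKM, against 40.3 ± 0.0737 FPKM in control cells (log2 fold change -0.37, adjusted p = 0.0107, but 0.0744 with no filter on low values). The remaining calls, named after their values were seen, were ALAD (0.28) and ABCB6 (0.25), higher, and UROD (-0.26), lower. All 3 calls ended without control library 2. That of ALAD also ended without siMTA1 library 2, that of UROD without siMTA1 library 1, and that of ABCB6 without siMTA1 library 1 or 2 or control library 1 (adjusted p of 0.0502 to 0.0945 over these cases). The count of 6 fell to 3 without control library 2 and was 2 with no filter on low values.

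Iron-sulphur clusters are built in mitochondria and matured in the cytosol, and in both lists every call was in the lower direction, beside 12.1% of all tested genes called lower and 6.13% higher. At an unadjusted p under 0.05 limma counted 10 mitochondrial and 4 cytosolic genes lower and 0 higher. The share of all tested genes at that unadjusted threshold is not given here, so these counts have no background beside them. Of 20 tested mitochondrial genes 8 were lower and 0 higher, with a median of -0.16. ISCU, the scaffold on which the cluster is assembled, fell to 28.98 to 31.23 FPKM in siMTA1 libraries, against 39.49 to 42.44 FPKM in control libraries (log2 fold change -0.43, SE 0.06, adjusted p = 0.00149). FDXR, the reductase that feeds electrons to this assembly, fell to 23.4 ± 0.495 FPKM in siMTA1 cells, against 29.1 ± 1.41 FPKM in control cells (SD, n = 3 each, log2 fold change -0.30, adjusted p = 0.00795). CISD1, an iron-sulphur protein of the outer membrane, fell to 8.61 ± 0.445 FPKM, against 11.4 ± 0.958 FPKM in control cells (log2 fold change -0.36, adjusted p = 0.00879, but 0.0602 with no filter on low values). The count of 8 fell to 4 without siMTA1 library 2 and to 5 without control library 1 or 2, and was 2 with no filter on low values. SLC25A37 and SLC25A28, the mitochondrial iron importers, did not pass, with log2 fold changes of 0.02 and -0.06. Of 10 tested cytosolic genes 3 were lower and 0 higher, with a median of -0.17, and these were GLRX3 (-0.23, adjusted p = 0.0370), CIAO1 (-0.21, adjusted p = 0.0386) and NUBP2 (-0.20, adjusted p = 0.0448). All 3 calls were close to the threshold and ended without siMTA1 library 1, 2 or 3 or control library 2 (adjusted p of 0.0579 to 0.154 in the 5 cases that ended each call), and with no filter, upper-quartile scaling, median centring or quantile normalization. The count of 3 was also 0 with a filter at 0.1 FPKM and 1 with TPM.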

How the data were processed

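Directional paired-end libraries of polyA-selected RNA from 6 HCT116 samples were sequenced, per the labels' protocols. Cutadapt, TopHat2, edgeR and GRCh38 are listed, with no role or version, per the submitters' processing notes. The authors deposited 1 table of FPKM for 36651 genes, printed to 2 decimals, while the gene lengths, annotation and counting method behind it were not given in the sources used here. Reads of overlapping or near-identical genes may be shared.

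The test was limma 3.58.1 (R 4.3.3), run for the 12141 genes that averaged 1 FPKM or more, on log2(FPKM + 1), a scale that understates changes of low genes, with an intensity trend, two-sided and without covariates. P-values were adjusted by Benjamini and Hochberg over all tested genes and called under 0.05. The fit was also run on simulated data with 200 genes changed by known amounts, and the outcome is not given here. The simulated spread was drawn independently for each gene. It therefore cannot show how deviations shared by the genes of a library affect the calls.

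The 10 genes, the 14 lists and the rules were chosen with earlier results of these data known. Named were the 10 genes, MTA1, from each list the called genes lowest in adjusted p, up to 3 (or else 1 uncalled), the 5 genes nearest in profile to LCN2 and to TFRC, genes starting within 100 kb of LCN2, and 2 ferritin pseudogenes a family. The other genes named (such as RELA, RELB, CEBPB, FBXL5, HAMP, HEPH, BMP6, TF, ABCG2, FDX1L, PCBP1, PCBP2, SLC25A37, SLC25A28, SLC22A17, NFKBIZ, SAA1, ALAD, ABCB6, UROD and single cell type markers) fall outside this rule and were chosen from the lists after their values were seen. Coordinates and exon lengths are GENCODE 29, in which 35749 identifiers were found. Depth came from the FPKM of genes shorter than 150 bases, as the fragment number that set most of them at 1 fragment, and 95.0% to 96.9% of low values were then whole within 0.05 beyond rounding. Python 3.11.15 with pandas 2.3.3 served for summaries, and matplotlib 3.10.9 for plots.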

Additional observations from a re-analysis of the deposited data

How the results depend on the processing

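Of the 9 tested iron handling genes, 4 were called, against 2 with no filter on low values, 2 of 6 tested with a mean of at least 5 FPKM, and 2 to 4 when 1 library was left out, the lowest without siMTA1 library 2. For the wider iron genes 24 were called, against 6 with no filter, 14 with median centring and 9 to 19 when 1 library was left out. Over all genes 2207 were called, against 676 with no filter, where 33126 genes were tested, 4049 with array weights and 1046 to 1773 when 1 library was left out. The causes were not tested. LCN2 and CYBRD1 kept their call under every setting in which they were tested, and none of the called genes recomputed this way changed its direction under any of the 17 settings. With the replicate number as a block, 3031 genes, 4 of the iron handling genes and 29 of the wider iron genes were called. Same-numbered libraries deviated together for number 1 (r = 0.331 over genes) and number 3 (0.219) but not number 2 (0.022). The block was not used for the reported values, because nothing in the labels says that the replicate number marks a shared batch. Among the other pairs r ran from -0.277 to 0.071, and siMTA1 libraries 1 and 3 correlated best with the control library of their own number, while siMTA1 library 2 had r = 0.022 with control libraries 2 and 3 alike. For SLC40A1 the printed decimals and the depth set the limit.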
